A study of Mus musculus with 10 samples.

Results

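The genes described here are the receptors with which the mouse liver senses drugs, bile acids, sterols, fatty acids and oestrogen, together with the partner that most of them share. They were chosen by gene symbol from a fixed list of 10 names: Nr1i2, Nr1i3, Ahr, Nr1h4, Nr0b2, Nr1h3, Ppara, Pparg, Rxra and Esr1. All 10 were found, among 55421 gene identifiers in the table, and all 10 were among the 22449 genes tested. RNA was measured by poly(A) RNA-seq in whole livers of 10 male mice that were injected with AAV8 virus at 6 months of age and killed 3 weeks later. The H3.3 KO group held 4 mice with floxed H3f3a and H3f3b (H3f3afl/fl H3f3bfl/fl, C57BL/6), the genes of the histone variant H3.3, and these mice received AAV8 Tbg-Cre. Tbg is a hepatocyte promoter, so Cre was directed to hepatocytes and the other cells of the liver were not targeted. The WT Cre controls were 3 wild-type mice given AAV8 Tbg-Cre, and the MCS controls were 3 mice with the same floxed genes given AAV8 Tbg-MCS, which carries no Cre. Every animal thus received AAV8, and the kinds of control differ from each other both in genotype and in virus.

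H3f3a stood at 25.7 to 30.6% of the control mean in the 4 KO livers and H3f3b at 24.9 to 35.4%. The genotype field of the labels names HIRA for the floxed mice, and Hira itself differed by −0.14 (log2, SE 0.138, edgeR adjusted p = 0.477). Total counts were 20862860 to 26096141 in 9 libraries and 14998426 in KO 1. All 10 hepatocyte markers were detected, and 6 were called lower and 1 higher in KO, with a median log2 fold change of −0.51 (3 to 5 lower when 1 KO library was left out). Their summed level was 124700 to 134000 CPM (counts scaled to a common, TMM-adjusted library size) in the WT Cre controls. It was 143300 to 177800 CPM in the MCS controls and 124000 to 135100 CPM in KO. Against the WT Cre controls 3 were called lower and 1 higher, and against the MCS controls 7 lower and 1 higher. The part of the hepatocyte markers in the results for the receptors was not tested. All 15 Kupffer cell and macrophage markers were called higher in KO, and their summed level was 260.1 to 486.1 CPM in the controls and 609 to 1329 CPM in KO. Of 9 stellate cell markers 8 were called higher (216.2 to 276.3 CPM in the controls, 492.5 to 785.5 in KO), as were 4 of 7 lymphoid markers. Of 6 cholangiocyte markers only 1 was called higher. Over all tested genes 19.7% were called higher and 16.6% lower. Of 6 endothelial markers 0 were called (4 higher without KO 1 and 4 with scaling to the library size). Of 5 adipocyte markers, Adipoq, Lep and Plin1 had at most 3 counts in every library. Cfd and Retn, the other adipocyte markers, were not called (edgeR adjusted p = 0.18 and 0.997). Against the MCS controls alone Cfd was called lower (log2 fold change −2.11, edgeR adjusted p = 0.0479). The summed adipocyte level was 0.159 to 0.542 CPM in WT Cre, 0.168 to 1.995 CPM in MCS and 0.126 to 0.712 CPM in KO livers. Its part in the results for Pparg was not tested. In such whole-tissue RNA, fewer cells of a type and less RNA per cell cannot be told apart.

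Nuclear receptors are transcription factors that small lipophilic molecules switch on. PXR (Nr1i2), CAR (Nr1i3), FXR (Nr1h4), LXRα (Nr1h3), PPARα (Ppara) and PPARγ (Pparg) bind DNA as pairs with the retinoid X receptor, of which RXRα (Rxra) is the main form in the liver. SHP (Nr0b2) has no DNA-binding domain and represses other receptors, and it is itself a classical target of FXR. ERα (Esr1) works as a pair with itself, and the aryl hydrocarbon receptor (Ahr) belongs to another family, the bHLH-PAS proteins, and pairs with ARNT, but it shares with PXR and CAR the task of inducing drug-metabolizing enzymes. Many of the pairs with RXR recognize repeats of the hexamer AGGTCA.

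The promoters of the members were examined for that hexamer, whether or not their mRNA changed, since most of these genes code for proteins that read it. RefSeq windows of 300 bases (250 before and 50 after the start of transcription, GRCm38.p6, the build mm10) were found for 9 of the 10 members, and genes with several starts gave 14 windows in all. The hexamer AGGTCA, searched on both strands, occurred in 4 of the 14 windows and in 16.3% of the 32851 windows of all genes. Those 4 were the downstream start of Rxra (2 matches), the first and the second start of Pparg (1 match each) and Nr1h4 (1 match). The E-box CACGTG, which reads the same on both strands, occurred in Nr1i3 and Nr0b2 and in 7.15% of all windows. The GC box GGGCGG, searched on both strands, occurred in 5 of the 14 and in 35.7% of all windows, 4 times upstream of the first Rxra start or just after it, and also in Nr0b2, Ppara and the first and second starts of Pparg. No window of Esr1, Nr1h3 or Nr1i2 held any of these letters. The windows of Nr1i3, of the downstream start of Rxra and of the first and second starts of Pparg are shown because these receptors fell in KO and their windows hold a hexamer or an E-box on either strand, which is in capitals. No match overlapped another. A match describes the letters only, and counts per gene do not show which start was used.
Nr1i3, chr1:171213720-171214019, plus strand: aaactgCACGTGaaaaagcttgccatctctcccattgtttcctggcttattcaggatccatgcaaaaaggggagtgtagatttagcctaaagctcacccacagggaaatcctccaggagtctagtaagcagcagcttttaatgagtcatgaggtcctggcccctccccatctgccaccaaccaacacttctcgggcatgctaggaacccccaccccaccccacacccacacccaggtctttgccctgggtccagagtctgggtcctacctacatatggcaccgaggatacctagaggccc
Rxra downstream start, chr2:27709042-27709341, plus strand: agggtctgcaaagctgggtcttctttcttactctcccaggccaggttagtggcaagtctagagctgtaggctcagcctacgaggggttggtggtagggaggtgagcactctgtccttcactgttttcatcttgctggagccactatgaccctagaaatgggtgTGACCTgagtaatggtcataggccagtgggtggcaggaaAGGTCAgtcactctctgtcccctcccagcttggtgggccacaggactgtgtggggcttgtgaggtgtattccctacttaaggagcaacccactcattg
Pparg first start, chr6:115360894-115361193, plus strand: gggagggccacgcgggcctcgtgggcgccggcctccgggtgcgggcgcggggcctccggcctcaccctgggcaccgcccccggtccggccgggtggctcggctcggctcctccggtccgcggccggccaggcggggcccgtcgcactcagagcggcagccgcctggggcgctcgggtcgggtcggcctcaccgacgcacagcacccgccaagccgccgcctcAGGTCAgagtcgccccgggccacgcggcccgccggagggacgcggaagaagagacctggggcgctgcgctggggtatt
Pparg second start, chr6:115362099-115362398, plus strand: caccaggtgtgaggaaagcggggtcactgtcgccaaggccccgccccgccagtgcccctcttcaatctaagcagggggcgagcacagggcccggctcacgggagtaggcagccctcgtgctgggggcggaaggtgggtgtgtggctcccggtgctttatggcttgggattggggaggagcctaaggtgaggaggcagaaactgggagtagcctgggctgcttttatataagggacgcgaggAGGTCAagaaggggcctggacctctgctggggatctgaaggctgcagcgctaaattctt

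In the Rxra window the matches began 87 and 48 bases before the start and lay on opposite strands. In Pparg they began 28 and 9 bases before the first and the second start. The E-box of Nr1i3 began 244 bases before its start. The windows also differed in composition, from 80.3% G and C with 44 CpG dinucleotides at the first Pparg start to 54.0% and 3 CpG at Nr1i3. The first Rxra start (chr2:27676951-27677250), which held no hexamer, had 83.0% G and C and 55 CpG.

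In the livers without Cre-mediated deletion, RXRα was the most abundant of these mRNAs per length. Exon length was taken from GENCODE M21 (mm10), and the level is given in CPM per kilobase of exon (mean ± SD, n = 6 controls). Rxra had 76.1 ± 5.02, Nr1h4 63.8 ± 10.2, Nr1h3 37.9 ± 2.88, Nr1i2 34.0 ± 5.25, Nr0b2 30.5 ± 10.3, Nr1i3 19.2 ± 5.70 and Ppara 17.8 ± 3.38. Ahr (6.00 ± 1.08), Pparg (3.99 ± 2.05) and Esr1 (1.22 ± 0.324) were lowest. Most neighbours in this order overlapped. Rxra and Nr1h4 shared the range from 66.3 to 69.7, Nr1h3, Nr1i2 and Nr0b2 overlapped one another, as did Nr1i3 with Nr0b2 and with Ppara and Pparg with Ahr and, barely, with Esr1, whereas Nr1h4 (lowest 43.5) lay above Nr1h3 (highest 40.5) and Ppara (lowest 14.0) above Ahr (highest 7.68). The deposited FPKM gave the same place at the top and for the last 4 genes, but put Nr1i3 in place 2 (63.4 ± 16.2) instead of 6, so the rank of CAR, whose exon length was 4414 bases here, differed between the measures, and the cause was not tested.

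In KO the order per length was led by Nr1h4 (53.4 ± 5.20 CPM per kilobase, n = 4), with Rxra behind it (44.2 ± 3.99), and their ranges touched only between 47.9 and 48.3. Nr1h3, Nr1i2 and Nr0b2 followed as in the controls. Nr1i3 (7.62 ± 2.55) stood below Ppara (13.6 ± 1.80) with no overlap, whereas in FPKM it was the higher of them (29.0 against 17.95, with overlap) and Rxra, at 44.0, came behind Nr1h3 at 45.2. At the bottom, Esr1 (2.86 ± 0.351) and Ahr (2.78 ± 0.459) overlapped, and Pparg (0.901 ± 0.769) came last.

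**Figure D1:**
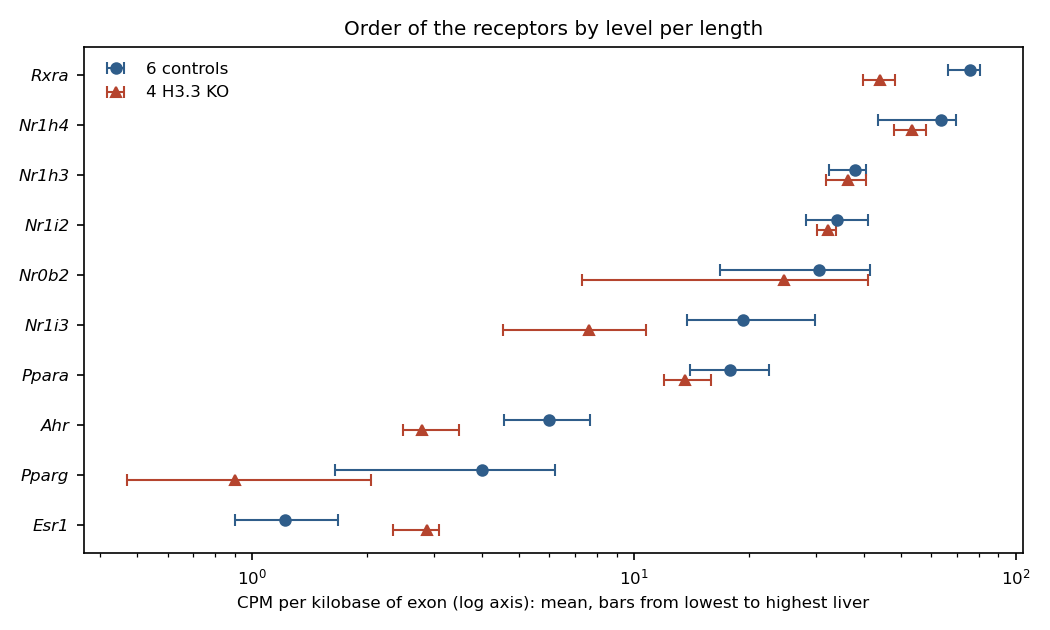
Level of each receptor mRNA in CPM per kilobase of exon on a log axis, as the mean of the 6 controls (circles) and of the 4 H3.3 KO livers (triangles) with bars from the lowest to the highest liver. Rxra is first in the controls (76.1) and second to Nr1h4 in KO (44.2 against 53.4), and Esr1 moves from the last place up.

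The main question was which of these receptors differed between H3.3 KO and control livers. Against the 6 pooled controls, Nr1i3, Ahr, Rxra, Pparg and Ppara fell and Esr1 rose. These 6 of 10 members were called by the quasi-likelihood test of edgeR (adjusted p under 0.05 over all genes), with 36.3% of all tested genes called. The 5 members that fell compare with 16.6% of all genes called lower, and the 1 that rose with 19.7% called higher. The differences exceeded 1 on the log2 scale in 4 members (18.7% of all genes). The median log2 fold change of the members was −0.35, with −0.0030 over all genes. Every liver of KO was below every control for 3 members (Nr1i3, Ahr and Rxra, with 12.0% of all genes) and above every control for 1 (Esr1, with 12.5% of all genes), and 6 members overlapped. Of all genes called, 54.3% were higher in KO with TMM scaling and 72.2% with scaling to the library size alone, which raised the median of all genes from −0.0030 to 0.17. The calls of Nr1i3, Ahr, Rxra and Esr1 and their directions held in all 19 alternatives tried, including that one, against the pooled controls and against each kind of control.

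**Figure D2:**
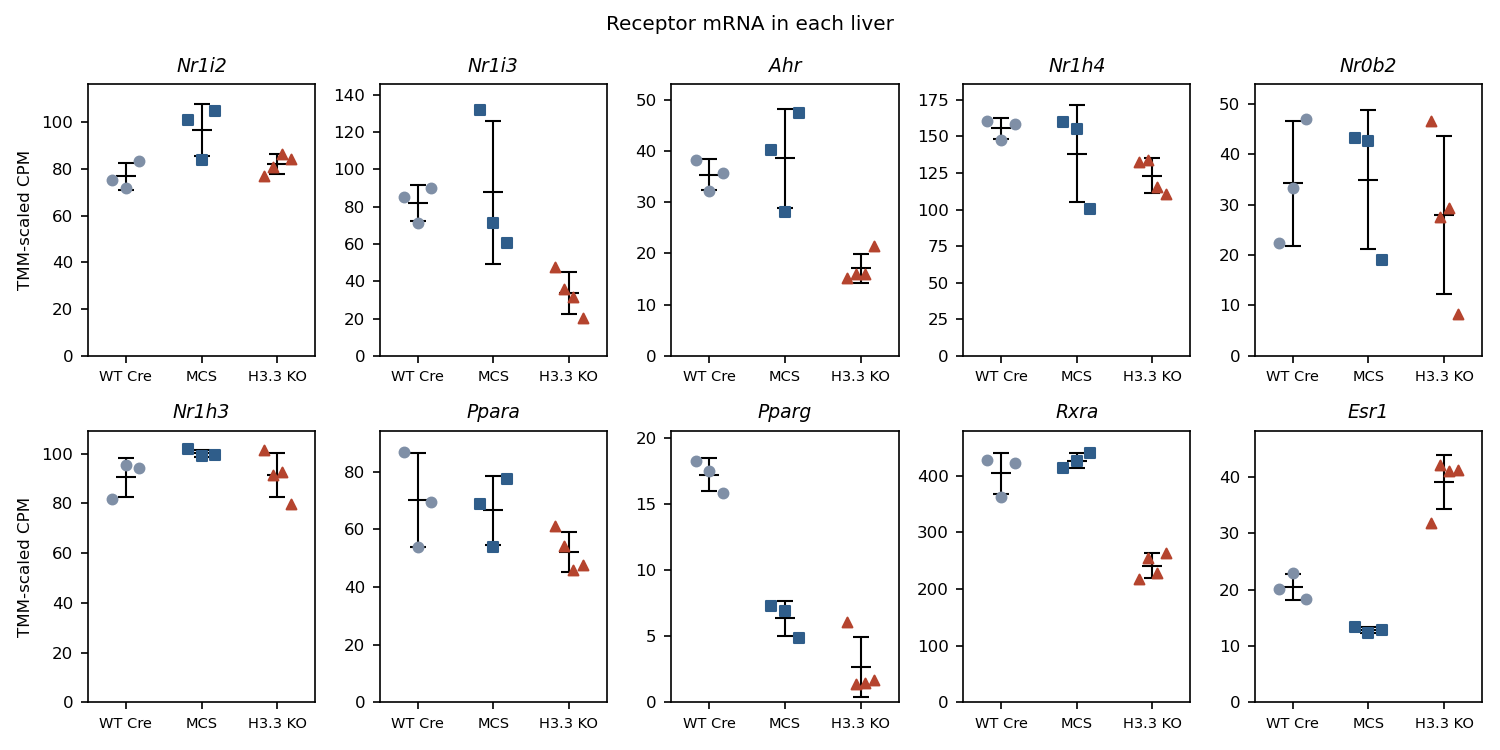
Each panel plots 1 receptor mRNA in TMM-scaled CPM (linear axis from 0) in the 3 WT Cre controls (circles), the 3 MCS controls (squares) and the 4 H3.3 KO livers (triangles), with the mean and SD of each group in black. Nr1i3, Ahr and Rxra lie below every control in all 4 KO livers, Esr1 lies above every control, and KO 1 is the highest KO point for Pparg at 6.06.

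Among the xenobiotic sensors, CAR and AHR fell while PXR was not called. CAR is a hepatocyte-enriched receptor that phenobarbital activates. Nr1i3 stood at 60.8 to 132 CPM in the 6 controls (median 78.3) and at 47.4, 35.6, 31.5 and 20.1 CPM in KO 1 to 4. All 4 KO livers were below the lowest control, and the mean was 39.6% of that of the controls, a log2 fold change of −1.34 (SE 0.262, 95% confidence interval −1.92 to −0.76, edgeR adjusted p = 0.00237). It was −1.29 against the WT Cre controls and −1.39 against the MCS controls (edgeR adjusted p = 0.0126 and 0.00786). The gene lies on chromosome 1 (171213970 to 171220701, plus strand, mm10), and its exons overlap those of Tomm40l on the other strand. Tomm40l differed by −0.0090 (edgeR adjusted p = 0.972).

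AHR binds dioxins and other planar aromatic compounds. Ahr (chromosome 12, 35497974 to 35535038, minus strand) had 28.1 to 47.3 CPM in the controls (median 37.0). In KO 1 to 4 it had 15.3, 15.9, 16.0 and 21.4 CPM, all below the lowest control and on average 46.4% of the control mean. This was a log2 fold change of −1.10 (SE 0.148, 95% confidence interval −1.42 to −0.79, edgeR adjusted p = 0.00011). Its exons overlap those of Gm48236 on the other strand, which had at most 4 counts in any library. PXR, the receptor for pregnanes and many drugs, was similar in level across the groups. Nr1i2 (chromosome 16, 38248323 to 38294824, minus strand) had 71.9 to 105 CPM in the controls (median 83.7) and 76.9, 81.1, 86.5 and 84.2 CPM in KO, inside the range of the controls. Its log2 fold change was −0.078 (95% confidence interval −0.33 to 0.17, edgeR adjusted p = 0.642), and its sign turned with scaling to the library size (0.11) and with FPKM (0.055 with a pseudocount of 1).

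The sensors of bile acids and sterols were not called. FXR, the bile acid receptor, had Nr1h4 (chromosome 10, 89454234 to 89533585, minus strand) at 100.1 to 161 CPM in the controls (median 157) and at 132, 134, 116 and 110 CPM in KO. Of the controls 5 were above all KO livers, and MCS 3 was below them. With all livers the log2 difference was −0.26 (SE 0.134, 95% confidence interval −0.54 to 0.033, edgeR adjusted p = 0.157), and without MCS 3 it was −0.34 (edgeR adjusted p = 0.0137), which is a call.

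SHP varied widely within groups. Nr0b2 (chromosome 4, 133553376 to 133556536, plus strand) ranged from 19.0 to 46.9 CPM in the controls (median 38.0) and was 46.5, 27.6, 29.3 and 8.30 CPM in KO 1 to 4. KO 1 was close to the highest control and KO 4 was below all of them. The interval of the log2 fold change of −0.31 ran from −1.30 to 0.67 (edgeR adjusted p = 0.622). LXRα, the oxysterol receptor, was steadier. Nr1h3 (chromosome 2, 91184061 to 91202834, minus strand) had 81.6 to 102 CPM in the controls (median 97.2) and 102, 91.4, 92.5 and 79.8 CPM in KO. Its log2 fold change was −0.061 (95% confidence interval −0.27 to 0.15, edgeR adjusted p = 0.666), and it turned to 0.12 with scaling to the library size and to 0.11 with FPKM (pseudocount 1). The exons of Nr1h3 overlap those of Gm13783 on the same strand. Gm13783 differed by −0.88 (SE 0.859, edgeR adjusted p = 0.465).

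Both fatty acid receptors were called lower, with different strength. PPARα drives fatty acid oxidation in the fasted liver. Ppara (chromosome 15, 85734983 to 85802819, plus strand) had 53.8 to 86.7 CPM in the controls (median 69.1) and 61.1, 54.2, 45.9 and 47.8 CPM in KO. KO 1 and KO 2 lay inside the range of the controls. In log2 terms the difference was −0.39 (SE 0.144, edgeR adjusted p = 0.0488), and it was past the threshold in 4 of 19 alternatives (adjusted p from 0.0216 to 0.469).

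PPARγ is the regulator of fat cell formation and is low in lean liver. Pparg (chromosome 6, 115360951 to 115490399, plus strand) differed by kind of control. It had 18.3, 17.5 and 15.9 CPM in the WT Cre controls and 7.28, 6.93 and 4.86 CPM in the MCS controls. In KO 1 it had 6.06 CPM and in KO 2 to 4 it had 1.38, 1.47 and 1.72 CPM. The WT Cre controls were thus the highest, KO 1 lay among the MCS controls, and KO 2 to 4 were lowest. Against all 6 controls the log2 fold change was −2.21 (SE 0.584, 95% confidence interval −3.52 to −0.90, edgeR adjusted p = 0.0154). The call was lost without KO 4 (edgeR adjusted p = 0.0576) and with a replicate block (edgeR adjusted p = 0.0762). Against the WT Cre controls the value was −2.76 (edgeR adjusted p = 0.00204) and against the MCS controls −1.33 (edgeR adjusted p = 0.0521). The latter was called in 4 of 19 alternatives, among them the fit without KO 1, at −2.06 (edgeR adjusted p = 3.76e-06). The difference between the kinds of control was 1.43 (95% confidence interval 0.39 to 2.48, edgeR adjusted p = 0.269).

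Of the 3 members that lay below every control, Rxra fell by the smallest factor and had the smallest SE. It lies on chromosome 2 (27676440 to 27762957, plus strand) and had 362 to 440 CPM in the controls (median 424). KO 1 to 4 had 218, 255, 228 and 264 CPM, on average 58.1% of the level in the controls. In log2 terms this was −0.78 (SE 0.103, 95% confidence interval −1.01 to −0.56, edgeR adjusted p = 9.63e-05). It was −0.74 against the WT Cre controls and −0.82 against the MCS controls (edgeR adjusted p = 0.000596 and 0.000251). The other RXR genes fell too. Rxrb, the widely expressed form, had 29.8 to 34.7 CPM in the controls and 24.7 to 28.2 CPM in KO (log2 fold change −0.30, edgeR adjusted p = 0.0122). Rxrb was called against the MCS controls (−0.35, edgeR adjusted p = 0.0117) and not against the WT Cre controls (−0.24, edgeR adjusted p = 0.0678). Rxrg had 2.46 to 7.89 CPM in the controls and 3.19, 1.42, 1.05 and 0.306 CPM in KO (log2 fold change −2.02, edgeR adjusted p = 0.0105). Rxra made up 87.6% ± 1.15 (SD, n = 6) of the summed RXR level per kilobase in control livers and 85.7% ± 2.19 (SD, n = 4) of that in KO livers.

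The level of Rxra was also set against that of its 6 partners among the members (Nr1i2, Nr1i3, Nr1h4, Nr1h3, Ppara and Pparg), summed per kilobase. The partners summed to 177 ± 14.0 CPM per kilobase in control livers and 144 ± 11.4 in KO livers. Rxra amounted to 43.3% ± 4.38 (SD, n = 6) of that sum in the controls, from 38.0 to 50.4%. In KO 1 to 4 it was 25.5, 31.3, 29.8 and 37.1%, and no KO liver reached the lowest control. With FPKM the shares were 26.9 to 39.9% in the controls and 19.9 to 32.5% in KO, which overlap.

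Esr1 was the only member that rose. ERα mediates the action of oestrogen and is expressed in the liver of both sexes. Esr1 lies on chromosome 10 (4611593 to 5005614, plus strand). It had 20.1, 23.0 and 18.4 CPM in the WT Cre controls and 13.5, 12.3 and 12.9 CPM in the MCS controls, which did not overlap. KO 1 to 4 had 31.9, 42.1, 41.0 and 41.3 CPM, above every control. The mean was 2.34 times that of the controls (log2 fold change 1.23, SE 0.174, 95% confidence interval 0.85 to 1.61, edgeR adjusted p = 0.000194). Against the WT Cre controls it was 0.93 (log2, SE 0.124) and against the MCS controls 1.60 (SE 0.128), with edgeR adjusted p-values of 0.000269 and 6.48e-06. These values differ by the distance between the kinds of control, 0.67 (edgeR adjusted p = 0.0345), which was not past the threshold in 11 of 19 alternatives or in any of the 6 that leave out a control.

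**Figure D3:**
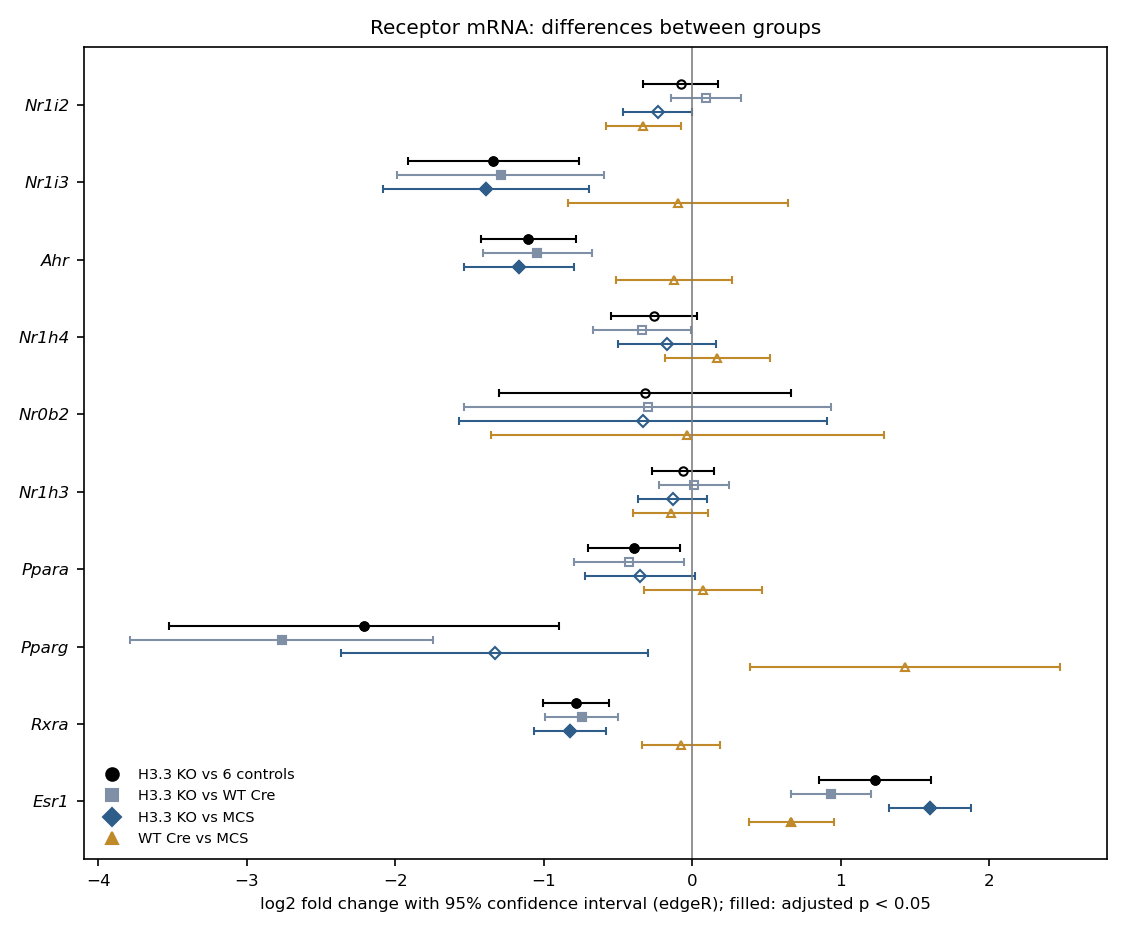
Log2 fold change of each receptor with its 95% confidence interval from edgeR, for H3.3 KO against the 6 controls (circles), against the WT Cre controls (squares) and against the MCS controls (diamonds), and for WT Cre against MCS controls (triangles). Filled symbols have an adjusted p under 0.05. Nr1i3, Ahr and Rxra are filled and negative in all 3 KO comparisons (−1.34, −1.10 and −0.78 against the 6 controls) and Esr1 is filled and positive (1.23).

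KO was also compared with each kind of control, and the kinds of control, which differ in both virus and genotype, with each other. The fits of 3 groups assign control columns to animals by number, on which every value for 1 kind of control rests. KO against the WT Cre controls called 5 members, 1 higher and 4 lower, with 28.4% of all genes called (15.3% higher and 13.1% lower). The 4 were Nr1i3, Ahr, Pparg and Rxra. KO against the MCS controls called 4 members, 1 higher and 3 lower, with 32.0% of all genes called (17.3% higher and 14.8% lower), and Pparg was not among them. The kinds of control differed in 1 member (Esr1), with 0.927% of all genes called. With a replicate block, in which KO 4 has no partner and adds nothing, 386 genes instead of 208 were called there, and Esr1 was again the only member. Nr1i2, at 75.5, 71.9 and 83.3 CPM in the WT Cre controls and 101, 84.0 and 105 CPM in the MCS controls, did not overlap either, but its difference of −0.33 was not past the threshold (edgeR adjusted p = 0.287). Ranges that did not overlap were found in 4 of 10 members between the kinds of control (Nr1i2, Nr1h3, Pparg and Esr1), with 22.2% over all genes. The KO comparisons share the KO livers and are not independent of each other.

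The target genes of the receptors were taken from 7 lists with 89 genes, each gene assigned to the receptor for which it is a textbook target (Pltp to both FXR and LXR). In KO against the 6 controls 23 were called higher and 27 lower, where 19.7% and 16.6% of all tested genes were, which is also the background of each list that follows. PXR and CAR share most of theirs, the cytochromes P450, transferases and transporters of drug disposal. Of 22 such genes 10 were called higher, 6 lower and 6 not, with a median log2 fold change of 0.35 (0.55 with scaling to the library size). Cyp2b10, the classical CAR target, had 7.59 to 36.8 CPM in the controls (median 11.8) and 207, 172, 167 and 285 CPM in KO, 13.1 times the control mean (log2 fold change 3.72, SE 0.476, edgeR adjusted p = 0.000351). This was the reverse of the direction of Nr1i3 itself in the same livers. Cyp3a11, the main PXR target, had 2813 to 4874 CPM in the controls and 9092 to 10830 CPM in KO (log2 fold change 1.42, edgeR adjusted p = 5.23e-05). Cyp2c55 rose as well, from 13.0 to 18.3 CPM in the controls to 37.1 to 65.9 CPM in KO (log2 fold change 1.85, edgeR adjusted p = 2.48e-06).

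Akr1b7, an aldo-keto reductase, had 0.112 to 0.238 CPM in the controls and 0.391, 5.38, 9.99 and 9.18 CPM in KO (edgeR adjusted p = 0.000325). Each control library held only 2 to 6 counts, and at equal depth the KO to control ratio was 40.8 (95% exact interval 26.9 to 64.8 for counting error). KO 1 was far below the other KO livers. In the opposite direction, Abcc3, an exporter of glucuronides and bile acids, had 238 to 427 CPM in the controls and 38.0, 25.6, 26.2 and 29.1 CPM in KO (log2 fold change −3.40, edgeR adjusted p = 1.45e-07). Alas1, which limits haem synthesis, had 312 to 986 CPM in the controls and 101 to 178 CPM in KO (log2 fold change −1.94, edgeR adjusted p = 0.000643). Genes of 1 family did not all move together, since Cyp2c29, which is named after its value was seen, fell by 1.36 (edgeR adjusted p = 0.0049). The Cyp, Gst and Ugt genes belong to families of near-identical copies, and reads may be split between them.

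Of the 22 PXR and CAR targets 5 were called higher in WT Cre than in MCS controls (Gsta1, Gstm1, Gstm3, Abcc4 and Ephx1; named here after their values were seen), where 0.441% of all genes were called higher, and 0 were called lower. The other 17 were not called. Of 7 tested AHR targets 1 was also called higher in WT Cre than in MCS controls. With the replicate block Gsta1 was not called (edgeR adjusted p = 0.0878). Cyp2b10 and Cyp2c55 were not called with the block either (−0.19 and −0.15, edgeR adjusted p = 0.955 and 0.628). Abcc4 had 14.8, 9.98 and 16.1 CPM in the WT Cre controls and 2.20, 2.10 and 2.79 CPM in the MCS controls (log2 difference 2.53, edgeR adjusted p = 0.00117). Gstm3 had 281, 372 and 517 CPM and 75.0, 67.2 and 87.2 CPM (log2 difference 2.35, edgeR adjusted p = 0.00117). In neither gene did the kinds of control overlap. Cyp3a11 had 4021 to 4874 CPM in the WT Cre and 2813 to 3059 CPM in the MCS controls, a log2 difference of 0.61 that was not past the threshold (edgeR adjusted p = 0.0546, and 0.0401 with the block, which is a call). KO called 10 of these targets higher and 8 lower against the WT Cre controls, and 10 higher and 5 lower against the MCS controls. Cyp2b10 rose by 3.90 against the former and by 3.56 against the latter (edgeR adjusted p = 0.00345 and 0.00406), and Abcc3 fell by 3.62 and 3.14 (edgeR adjusted p = 8.87e-08 and 2.22e-07).

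The targets of AHR that were called moved opposite to Ahr. Of 8 genes 7 were tested, since Aldh3a1 had too few counts, and 3 were called higher, 0 lower and 4 not, with a median of 0.66. Cyp1a1, the most used readout of AHR activity, had 1.51 to 3.65 CPM in the controls and 3.71, 7.04, 10.7 and 11.7 CPM in KO (log2 fold change 1.503, edgeR adjusted p = 0.00188). KO 1 was just above the highest control. Cyp1b1 had 0.390 to 1.12 CPM and 1.48 to 4.67 CPM (log2 fold change 1.61, edgeR adjusted p = 0.00277). Stellate cells also express Cyp1b1, and the summed stellate markers moved with it (216.2 to 276.3 CPM in the controls, 492.5 to 785.5 in KO). Their part in this result was not tested. Ahrr, the repressor that AHR induces, was called higher from 1 to 3 counts in each control library and 3 to 18 in each KO library (edgeR adjusted p = 0.00572). The summed counts, 14 and 37, gave a KO to control ratio of 4.0 at equal depth (95% exact interval 2.11 to 8.01, which covers counting error only). Cyp1a2, the abundant liver form, had 469 to 811 CPM in the controls and 369 to 537 CPM in KO and was not called (log2 fold change −0.41, edgeR adjusted p = 0.0936). Against the MCS controls alone Cyp1a2 was called lower (−0.69, edgeR adjusted p = 0.00234). Of 5 partners and chaperones of AHR, Arnt was called higher (log2 fold change 0.33, edgeR adjusted p = 0.0168, not called without KO 2), 4 were not called, and the median was 0.14 (−0.15 without KO 4). Arnt was not called against the WT Cre controls (0.31, edgeR adjusted p = 0.0663).

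**Figure D4:**
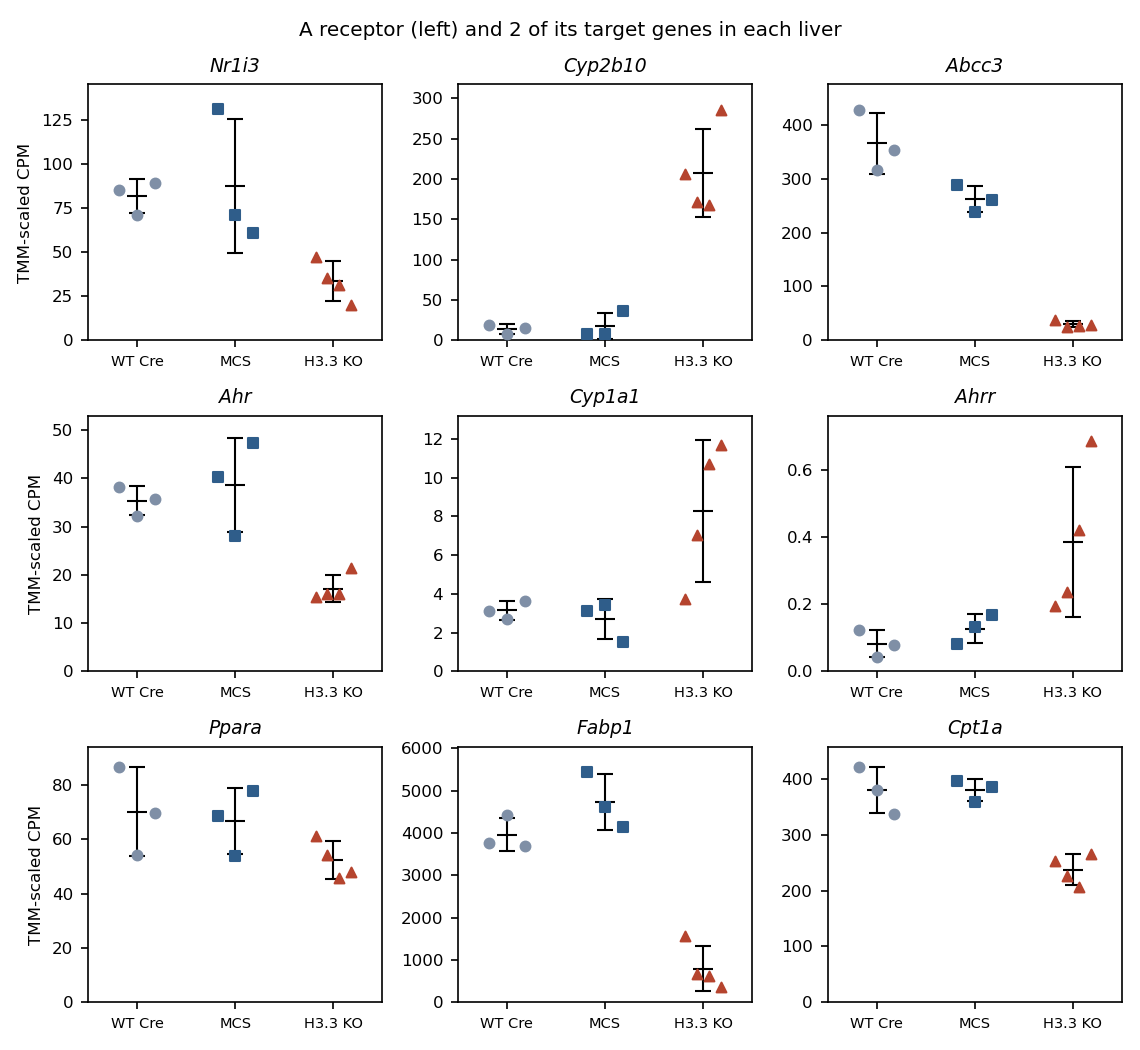
TMM-scaled CPM of 3 receptors (left column: Nr1i3, Ahr and Ppara) and 2 target genes of each (Cyp2b10 and Abcc3, Cyp1a1 and Ahrr, Fabp1 and Cpt1a) in the 10 livers, with the mean and SD of each group in black and linear axes from 0. Nr1i3 and Ahr are lower in KO (39.6% and 46.4% of the control mean) where Cyp2b10, Cyp1a1 and Ahrr are higher and Abcc3 is lower, and Ppara, Fabp1 and Cpt1a are all lower on average.

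Against the pooled controls, the targets of FXR and SHP were called lower or not called. Of 10 genes that FXR induces 0 were called higher, 3 lower and 7 not, with a median of −0.77, and 5 were lower without KO 1. Slc27a5, the bile acid CoA ligase, had 967 to 1258 CPM in the controls and 372, 278, 212 and 169 CPM in KO (log2 fold change −2.05, edgeR adjusted p = 1.13e-05). Baat, which joins bile acids to taurine in the next step, had 299 to 326 CPM in the controls and 177, 62.8, 51.0 and 42.5 CPM in KO (log2 fold change −1.91, edgeR adjusted p = 0.003). Baat was highest in KO 1 among the KO livers. The third was Slc51a, which had at most 19 counts in any library and was not called against the MCS controls (−1.52, edgeR adjusted p = 0.0648). Abcb11, the bile salt export pump, stayed at 691 to 844 CPM in KO within the 680 to 941 CPM of the controls (edgeR adjusted p = 0.998).

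Of 5 genes that FXR and SHP repress 0 were called higher, 3 lower and 2 not, with a median of −0.97. Slc10a1, the bile acid uptake transporter NTCP, had 559 to 1016 CPM in the controls and 143, 267, 273 and 181 CPM in KO (log2 fold change −1.88, edgeR adjusted p = 5.61e-05). Apoa1, the main protein of HDL, had a log2 fold change of −0.97 (edgeR adjusted p = 0.0232), and Cyp27a1 was the third. Apoa1 was called against the MCS controls (−1.35, edgeR adjusted p = 0.00119) and not against the WT Cre controls (−0.45, edgeR adjusted p = 0.175). Of these 5 genes 2 were called lower against the WT Cre controls and 3 against the MCS controls. Cyp7a1, the rate-limiting enzyme of bile acid synthesis, ranged from 17.7 to 130 CPM in the controls and was 29.3, 25.3, 25.8 and 2.87 CPM in KO. Its difference of −1.88 was not past the threshold (edgeR adjusted p = 0.0718), and that of Cyp8b1, the 12α-hydroxylase, was 0.079 (edgeR adjusted p = 0.895). Against the MCS controls alone 2 genes that FXR induces were called higher, Osgin1 by 1.51 and Abcb4, a phospholipid exporter, by 0.51 (edgeR adjusted p = 0.000954 and 0.0183, named after their values were seen).

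LXR targets moved both ways. Of 15 genes 7 were called higher, 3 lower and 5 not, with a median of 0.28 (0.12 without KO 1), and 1 was lower without KO 4. Lpl, lipoprotein lipase, had 8.18 to 13.6 CPM in the controls and 19.6, 64.0, 63.9 and 55.5 CPM in KO (log2 fold change 2.28, edgeR adjusted p = 0.000218). Arl4c rose by 1.72 and the cholesterol exporter Abca1 by 0.43 in log2 terms (edgeR adjusted p = 0.000266 and 0.04). The hepatobiliary sterol exporter Abcg5 fell by 0.78 and the desaturase Scd1 by 0.74 (edgeR adjusted p = 0.00921 and 0.0182). Against the MCS controls Abca1 (0.25) and Scd1 (−0.54) were not called (edgeR adjusted p = 0.238 and 0.0937). Abcg5 was not called against the WT Cre controls (−0.67, edgeR adjusted p = 0.0504). Srebf1, the lipogenic factor, differed by −0.46 (edgeR adjusted p = 0.438). Macrophages also express Lpl, Arl4c and Abca1, and the summed macrophage markers moved with them (260.1 to 486.1 CPM in the controls and 609, the lowest, to 1329 in KO). Their part in this result was not tested.

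PPARα targets fell more often than they rose. Of 23 genes 2 were called higher, 11 lower and 10 not, with a median of −0.59, and the number lower was 7 without KO 2 or without KO 3. The number higher was 1 without KO 1, KO 3 or KO 4. Fabp1, the liver fatty acid binding protein, had 3702 to 5444 CPM in the controls and 1566, 660, 618 and 356 CPM in KO (log2 fold change −2.44, edgeR adjusted p = 0.0004). Fgf21, a hormone of fasting, had 1.51 to 10.3 CPM in the controls and 1.56, 0.277, 0.379 and 0.153 CPM in KO (log2 fold change −3.49, edgeR adjusted p = 0.0041). Vnn1, a pantetheinase, had 27.4 to 96.5 CPM and 27.2, 2.89, 3.96 and 1.84 CPM (log2 fold change −2.89, edgeR adjusted p = 0.03). For each of these KO 1 was the nearest to the controls. Vnn1 was not called against the MCS controls (−2.31, edgeR adjusted p = 0.0898). Cpt1a, the gate of mitochondrial fatty acid import, fell by 0.68 (edgeR adjusted p = 0.00042). Cyp4a10, a fatty acid ω-hydroxylase, and Ehhadh of the peroxisome rose by 0.94 and 0.43 (edgeR adjusted p = 0.0227 and 0.0271). Cyp4a10 was called against the WT Cre controls (1.22, edgeR adjusted p = 0.0212) and not the MCS controls (0.71, edgeR adjusted p = 0.125). Ehhadh was called against the MCS controls (0.55, edgeR adjusted p = 0.0166) and not the WT Cre controls (0.32, edgeR adjusted p = 0.145). Cyp4a14 differed by −1.33 and Pdk4 by 1.21, neither past the threshold against the pooled controls (edgeR adjusted p = 0.191 and 0.0982). Pdk4 was called higher against the MCS controls (2.48, edgeR adjusted p = 7.78e-05) and not against the WT Cre controls (0.56, edgeR adjusted p = 0.102).

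Targets of PPARγ in fat storage were few. Of 7 genes 6 were tested, with 1 called higher, 1 lower and 4 not, and a median of −0.54. Without KO 1 the list had 0 higher and 3 lower with a median of −1.705, without KO 4 it had 0 higher, and the median was −0.22 without KO 2 or KO 3. Fabp4, which macrophages and endothelium also express, rose by 0.64 and Plin4, a lipid droplet protein, fell by 2.31, both in log2 units (edgeR adjusted p = 0.0263 and 0.00784). Fabp4 was not called against the MCS controls (0.55, edgeR adjusted p = 0.12). Cidec, a lipid droplet protein that PPARγ induces in fatty liver, had 3.44 to 28.6 CPM in the controls and 11.8, 4.98, 7.46 and 56.5 CPM in KO, with a log2 fold change of 0.50 (edgeR adjusted p = 0.68). Cd36, a fatty acid transporter, differed by −0.61 (edgeR adjusted p = 0.296).

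**Figure D5:**
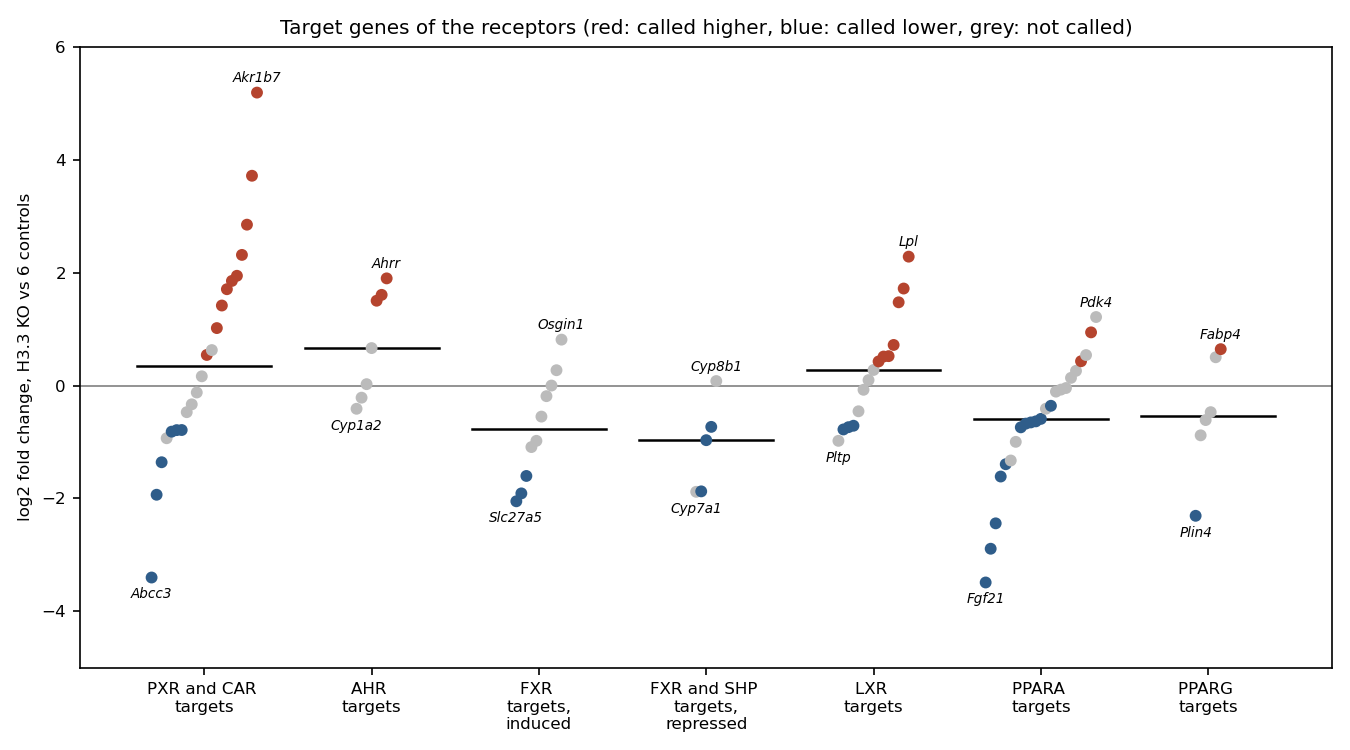
Log2 fold change of each target gene in H3.3 KO against the 6 controls, by the receptor it was assigned to (each point is 1 gene, the black line is the list's median, and the genes at either end are named). Red points were called higher, blue lower and grey not called by edgeR (adjusted p under 0.05). Points of PXR, CAR and LXR targets spread to both sides of 0 (10 higher and 6 lower, 7 higher and 3 lower), and the called FXR and SHP targets are all below 0.

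The cofactors that these receptors recruit were called in both directions. Of 10 coactivators Ncoa3 was called higher (log2 fold change 0.49), Ppargc1a, the coactivator PGC-1α, and Carm1, an arginine methyltransferase, were called lower (−0.997 and −0.51), and 7 were not called (edgeR adjusted p = 0.0153, 0.000802 and 0.00225). Their median was 0.095 (0.032 without KO 4 and 0.28 with scaling to the library size), and 2 were higher without KO 1 and 3 higher with 1 lower when scaled to the library size. Ncoa3 was not called against the MCS controls (0.44, edgeR adjusted p = 0.0648). Of 9 corepressors 3 were called higher, 2 lower and 4 not, with a median of 0.25 that was −0.067 without KO 4. With scaling to the library size 4 were higher and 1 lower. Nrip1 rose by 0.54, whereas Hdac3, a histone deacetylase, fell by 0.68 and Tbl1xr1 by 0.45, all in log2 units (edgeR adjusted p = 0.0115, 0.000194 and 0.0137). Against the MCS controls 3 corepressors were called higher and 2 lower, and against the WT Cre controls 1 higher and 1 lower. Nrip1 (0.34) and Tbl1xr1 (−0.30) were not called against the WT Cre controls (edgeR adjusted p = 0.0865 and 0.105).

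The members were also set beside 40 other nuclear receptors, of which 32 had enough counts to be tested. Of those 10 were called higher, 7 lower and 15 not, with a median of 0.061 that was −0.018 without KO 1 (11 higher and 3 lower with scaling to the library size, median 0.24). Esrrb, an orphan receptor related to ERα, rose from 0.357 to 1.38 CPM in the controls to 8.60, 7.67, 6.45 and 4.74 CPM in KO (log2 fold change 2.89, edgeR adjusted p = 8.79e-06). Vdr, the vitamin D receptor, had 0 to 2 counts in each control library and 3 to 13 in each KO library (edgeR adjusted p = 0.00125), a ratio of 12.5 at equal depth (95% exact interval 4.44 to 48.5 for counting error). Ppard, the most widely expressed PPAR, rose by 0.68 (edgeR adjusted p = 0.00253), so the 3 PPAR genes did not move in 1 direction. The log2 fold change of Hnf4a, which sets hepatocyte identity, was −0.55 (edgeR adjusted p = 0.0763) and that of Nr1h2, which codes for LXRβ, was −0.16 (edgeR adjusted p = 0.181). Hnf4a was called lower against the MCS controls (−0.76, edgeR adjusted p = 0.0336) and not against the WT Cre controls (−0.31, edgeR adjusted p = 0.371). Esr2, the gene of ERβ, had at most 3 counts in every library.

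The genes whose pattern over the 10 livers was most like that of each member were found by Pearson's r of log2 CPM among 11584 genes with a mean log2 CPM of at least 1. All 10 livers share the split between KO and controls, and r is a description. For Nr1i3 they were Tom1 (r = 0.985) and Phykpl (0.978). Ahr was closest to Paip1 (0.972) and Card6 (0.970), and Rxra to Adcy9 (0.983) and Colec12 (0.981). For Esr1 they were Plekha1 (0.982) and Tuba8 (0.981), and for Pparg Ttll5 (0.981) and Cebpzos (0.977). The members that were not called had lower values, from 0.958 for Nr0b2 with Ccnq to 0.900 for Nr1i2 with Klhl3, and Ppara had 0.901 with Ptgr2.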

How the data were processed

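RNA was taken from whole livers, and poly(A) libraries were made with a directional kit. Per the paper's methods the authors trimmed reads with Trim Galore, used STAR for alignment to mm10 and HOMER for counting reads over genes, whereas the submitters' processing notes list STAR, HTSeq and Cufflinks, so the counter is unsure. The deposited counts are whole numbers per gene without normalization. The deposited FPKM values (fragments per kilobase and per unit of depth, tool not given in the sources used here) had 268042 blank cells, 0 of them in the members. Strand setting and multiple matches were not stated, so overlapping genes and near-identical copies are uncertain. All 10 columns of each table were assigned, the control columns by the number in the library names.

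Genes with at least 10 summed counts were tested with edgeR 4.0.16 (R 4.3.3, quasi-likelihood F test, TMM, robust, two-sided, Benjamini-Hochberg over 22449 genes), with 2 groups for KO against the 6 pooled controls and 3 groups for the other comparisons. SE and intervals come from the same test, and CPM are TMM-scaled. The edgeR fit of KO against the 6 pooled controls was tested on simulated data, and the other comparisons and the alternatives were not. Alternatives were DESeq2 1.42.0, limma voom 3.58.1, other scalings and filters, log2(FPKM + 1) and log2(FPKM + 0.1) in limma, a replicate block, and leaving out each library. Deviations of same-numbered WT Cre and MCS controls correlated at 0.146, 0.147 and 0.116, a hint of pairing from the data and not the labels. Samples of different number and group correlated at −0.3 to 0.357, highest for KO 4 with MCS 3. These values do not settle whether the numbers mark pairs. The main tests used no pairing, and the replicate block was only an alternative. Same-numbered KO and control livers correlated at −0.153 to 0.233 and were not taken as pairs. The replicate block nevertheless used the numbers in all groups, so it also tied KO 1 to 3 to the same-numbered controls. The labels do not say more on how replicates were raised, and p-values measure the spread between these livers. No replicate was a repeated library. Depths of 14998426 to 26096141 counts gave each member at least 35 counts in every library. Members and lists were chosen with earlier results of these data known. Named list genes are up to 2 called higher and 2 called lower per list with the largest change, plus preset readouts of each receptor, and 2 genes that this rule names are not reported here. Coordinates and exon lengths came from GENCODE M21 and promoters from RefSeq (GRCm38.p6), where no window for Ahr was found.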

Additional observations from a re-analysis of the deposited data

Results flagged for a closer look

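Among 20 checks of the members' groups for a library apart from the others (Dixon's ratio, 10 members in the controls and in KO, where chance alone flags about 1 in 20), 6 were past the limit. Ahr was highest in KO 4 at 21.4 CPM. Pparg was highest in KO 1 at 6.06 CPM and Esr1 was lowest in KO 1 at 31.9 CPM, so that KO 1, the library with the lowest total, was nearer to the controls for both. In the controls Nr1h4 was low in MCS 3 at 100.1 CPM, Nr1h3 was low in WT Cre 1 at 81.6 CPM and Rxra was low in WT Cre 2 at 362 CPM. The effect of KO on Esr1 differed by the kind of control it was measured against, since the WT Cre controls were higher than the MCS controls by a log2 difference of 0.67 (edgeR adjusted p = 0.0345, lost whenever a control library was left out). Genotype and virus both differ between the kinds of control and cannot be told apart.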

How the results depend on the processing

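Nr1i3, Ahr, Rxra and Esr1 kept direction and call in all 19 alternatives of all 3 KO comparisons. Leaving out each library in turn gave 4 to 6 members called against the pooled controls, 5 to 6 against the WT Cre and 4 to 5 against the MCS controls. The call of Ppara was lost in 15 of 19 alternatives, that of Pparg with the replicate block (adjusted p = 0.0762) and without KO 4. Esr1 between the kinds of control was called in 8 of 19 (adjusted p from 0.000773 to 0.155) and in 0 of the 6 that leave out a control.

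Signs turned only for values that were not called. Scaling to the library size, log2(FPKM + 1) and log2(FPKM + 0.1) gave, in this order, 0.11, 0.055 and 0.057 for Nr1i2 and 0.12, 0.11 and 0.12 for Nr1h3 against the pooled controls, 0.065, 0.15 and 0.15 for Nr1h4 and 0.11, 0.13 and 0.14 for Nr1h3 against the MCS controls (Nr1i2 0.019 with library size), and between WT Cre and MCS controls 0.027, 0.11 and 0.11 for Nr1i3, 0.022, 0.088 and 0.11 for Ahr, 0.096, 0.14 and 0.14 for Nr0b2, 0.062, 0.092 and 0.093 for Rxra, and 0.042 with either FPKM for Nr1h3. The cause was not tested. Leaving out 1 library gave −0.66 to 0.00061 (Nr0b2) and −0.056 to 0.065 (Nr1h3) against the WT Cre controls, and between the kinds of control −0.30 to 0.32 (Nr1i3), −0.31 to 0.050 (Ahr), −0.017 to 0.28 (Nr1h4), −0.33 to 0.20 (Nr0b2) and −0.11 to 0.23 (Ppara).

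Genes past the threshold with an absolute log2 fold change over 1 fell with log2(FPKM + 1), which changes measure, test and pseudocount together, from 4199 to 1281 (pooled), 3566 to 1144 (WT Cre), 3926 to 1387 (MCS) and 144 to 92 (WT Cre against MCS), and with log2(FPKM + 0.1) to 2923, 2614, 3160 and 142. The cause was not tested. Between the kinds of control 208 genes were called, with 651 (314 over 1) in DESeq2, 315 without a filter, and 70 to 517 (66 to 259 over 1) without 1 library. Members called there were 2 in DESeq2, 0 with either FPKM and 0 to 2 without 1 library. Target genes called without 1 KO library were 16 to 20 higher and 19 to 34 lower. Levels per length moved beyond 1 SD with FPKM for Nr1i2 (24.7), Nr1i3 (63.4), Nr1h3 (41.7), Rxra (67.6) and Esr1 (2.08).

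Same-numbered KO and control samples did not all deviate together (−0.153 to 0.233), and 7 of 9 samples with a partner correlated best with their own number, a hint from the data only. The replicate block changed the calls from 8155 to 6311 against the pooled controls and from 208 to 386 (221 over 1) between the kinds of control, and turned Nr0b2 there to 0.018.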
